A study of Homo sapiens with 24 samples.

Results

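The genes described here make cholesterol and fatty acids or control how much sterol a cell makes, takes in and exports. The set was a list of 35 gene symbols, chosen for their known role and not for a value measured here. Earlier results of these data were known when it was chosen. Every probe of these symbols that was detected (detection p-value under 0.05) on at least 4 of the 24 arrays was kept, which left 50 of the 23019 probes kept in all. They stood for 33 of the 12357 genes tested. FDFT1 (squalene synthase) and ACSL3 (a long-chain acyl-CoA ligase) had no named probe, so neither was analysed here.

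The study measured RNA from MCF10A (a line of human breast epithelial cells that do not form tumours) on Illumina BeadChip arrays, to compare 2 isoforms of the receptor tyrosine kinase ERBB4. The stable lines carried an empty control vector, CYT1 or CYT2, isoforms that differ in the cytoplasmic tail of the receptor. All 6 groups were starved of serum for 48 h. They were then kept for 2 h without ligand or with neuregulin 1 (NRG1), a ligand of ERBB4, so the groups were vector, CYT1 and CYT2 cells, each without and with NRG1. The receptors are full-length JM-a forms by the series title, but the isoform names in the sample characteristics carry the letters ICD. The labels do not say whether a line was 1 clone or a pool. Each group held 2 biological samples, each read on 2 technical arrays that were averaged. Nothing in the labels says that the 2 samples came from separate cultures, so p-values measure only the spread between these samples.

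As background, sterol synthesis starts from acetyl-CoA, runs through the mevalonate pathway to farnesyl diphosphate, and continues through squalene and lanosterol to cholesterol. Most of its enzymes, and many fatty acid enzymes, are transcribed under SREBP factors, which SREBF1 and SREBF2 encode. When sterol is plentiful, INSIG proteins hold the SREBP escort SCAP in the endoplasmic reticulum, and when it is scarce, SCAP carries SREBP to the Golgi, where proteases release the active factor. Excess sterol in the form of oxysterols activates the nuclear receptor LXR, which raises the exporters ABCA1 and ABCG1 and the ubiquitin ligase MYLIP. MYLIP, also called IDOL, directs lipoprotein receptors to degradation and so limits sterol uptake.

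Promoter sequence was looked at because many of these genes are textbook targets of SREBP acting beside the factor NF-Y. RefSeq promoters (GRCh38.p14, 250 bases before to 50 after each start) were matched for 30 of the 35 members. They were searched on both strands for the sterol regulatory element core TCACNCCAC, the longer element (the core with an A before it, so that each longer match holds a core match), the NF-Y box CCAAT, the E-box CACGTG and a paired LXR motif (AGGTCA, any 4 bases, then AGGTCA again). The NF-Y box was in 20 of 30 member promoters (66.7%) and in 34.6% of all 35116 promoters of this length. The E-box was in 5 of 30 (16.7%, against 7.26% of all), in the promoters of LSS, SC5D, INSIG1, SCAP and ABCA1. The longer sterol regulatory element and its core were found in 1 member promoter, that of SREBF2, and in 0.154% and 1.13% of all promoters. The paired LXR motif was in 0 of 30 member promoters and 7 of all promoters. The stretches that follow run 5′ to 3′ on the strand of the gene, the plus strand in all 4. Capitals mark the NF-Y box, read as ATTGG where it lies on the other strand, and, in SREBF2, the sterol regulatory element. MYLIP (chr6:16128956-16129055) is shown because it is the member that passed the test, with both of its NF-Y boxes. MVK (chr12:109573624-109573763) and FDPS (chr1:155308676-155308835) are shown as mevalonate enzymes with several boxes. SREBF2 (chr22:41832955-41833024) is shown for the element that lies beside its NF-Y box. A match is a string of letters and not a measured binding site.
MYLIP: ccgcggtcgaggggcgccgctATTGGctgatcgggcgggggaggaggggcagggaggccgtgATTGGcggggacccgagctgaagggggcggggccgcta
MVK: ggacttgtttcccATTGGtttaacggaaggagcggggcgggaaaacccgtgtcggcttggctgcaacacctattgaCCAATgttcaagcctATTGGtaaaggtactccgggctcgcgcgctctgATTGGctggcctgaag
FDPS: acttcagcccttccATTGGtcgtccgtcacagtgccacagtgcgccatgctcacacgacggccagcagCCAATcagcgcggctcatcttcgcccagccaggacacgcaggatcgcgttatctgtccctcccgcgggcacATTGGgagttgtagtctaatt
SREBF2: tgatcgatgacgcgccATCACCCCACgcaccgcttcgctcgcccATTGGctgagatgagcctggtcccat

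Between 18745 and 20370 probes per array were detected, and the median signal ran from 114 to 126.3 intensity units. Precision is limited by the number of samples, 2 a group, and the spread between them. ERBB4 had 1 probe, which was detected on 0 of 24 arrays, so the introduced receptor could not be followed and the labels could not be checked by it. On the first principal component of the 12 samples (24.46% of the variance), sample 1 of CYT1 cells with NRG1 lay at -18.2 and sample 2 at -0.57. All 4 basal epithelial markers with a named probe (KRT5, KRT14, ITGB4 and LAMB3) and all 4 general epithelial markers were detected on every array. Of the 5 luminal markers, ESR1 was detected on 17 arrays, PRLR on 10, KRT19 on 1, and PGR and ELF5 on 0. Of the 4 adipocyte markers, FABP4 and LEP were detected on all 24 arrays, ADIPOQ on 4 and PLIN1 on 0. Of the 5 fibroblast markers, DCN was detected on all arrays, COL1A1 on 18, COL1A2 on 14, COL3A1 on 2 and PDGFRB on 0. No immune or endothelial marker was detected on all arrays. Markers with an adjusted p under 0.05 in any comparison had it between CYT2 and vector cells. Averaged over ligand, FABP4 (log2 difference -1.5001, adjusted p = 0.0170, limma) and the fibroblast marker COL1A1 (-0.36, adjusted p = 0.0492) were lower in CYT2 cells. The epithelial marker EPCAM was higher (0.45, adjusted p = 0.0170, limma). The COL1A1 probe was dim and was detected on 2 of 4 arrays in CYT2 cells, both without and with NRG1. COL1A2, of the same list, read 4.78 and 4.95 in vector and 5.10 and 5.16 in CYT2 cells without ligand. With NRG1 it read 4.91 and 5.05 in vector and 4.88 and 4.97 in CYT2 cells. DCN read 7.40 and 7.86 in vector and 7.57 and 7.88 in CYT2 cells without ligand. With NRG1 DCN read 7.39 and 7.79 in vector and 7.76 and 7.64 in CYT2 cells. Without ligand FABP4 was also lower (-1.76 ± 0.40, SE, adjusted p = 0.0441), whereas LEP, of the same adipocyte list, lay the other way, at 6.27 and 6.41 in vector and 6.62 and 6.84 in CYT2 cells. The part of these markers in the results below was not tested.

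Values below are log2 intensities after background correction and quantile normalization, and 1 unit is a doubling. A difference is given with the standard error (SE) of 1 linear model over all 12 samples (limma), and a gene passed when its p-value, adjusted with Benjamini-Hochberg over all 12357 genes, was under 0.05. Levels of different genes come from different probes and are not compared with each other. The probe used was detected on all 24 arrays for 31 of the 33 members, on 23 for ABCA1 and on 5 for STARD4.

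Within 2 h of NRG1, 1 of the 33 genes passed the test, in CYT2 cells. This was MYLIP, which was 1.504-fold lower with NRG1 than without. The mevalonate, sterol and fatty acid enzymes and the SREBP control genes all stayed short of the threshold in each line. In CYT2 cells 1.65% of all genes passed the test (0.291% lower), so the count of 1 in 33 is near that background and is not a result about the set. In vector cells 0 members passed and 0% of all genes did. In CYT1 cells 0 members passed and 0.0324% of all genes did.

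Without adjustment, 1 member was higher and 0 were lower at p under 0.05 after NRG1 in vector cells (4.05% of all genes in either direction). In CYT1 cells the counts were 0 higher and 1 lower (7.55% of all genes), and in CYT2 cells 0 higher and 3 lower (11.4% of all genes). The 95% interval of the change lay within 1 log2 unit of 0 for all 33 members in each line. It lay within 1.5-fold for 32 members in vector, 31 in CYT1 and 28 in CYT2 cells. The 3 comparisons had a median SE of 0.12, so changes well under 1.5-fold were within the error of these samples.

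**Figure D1:**
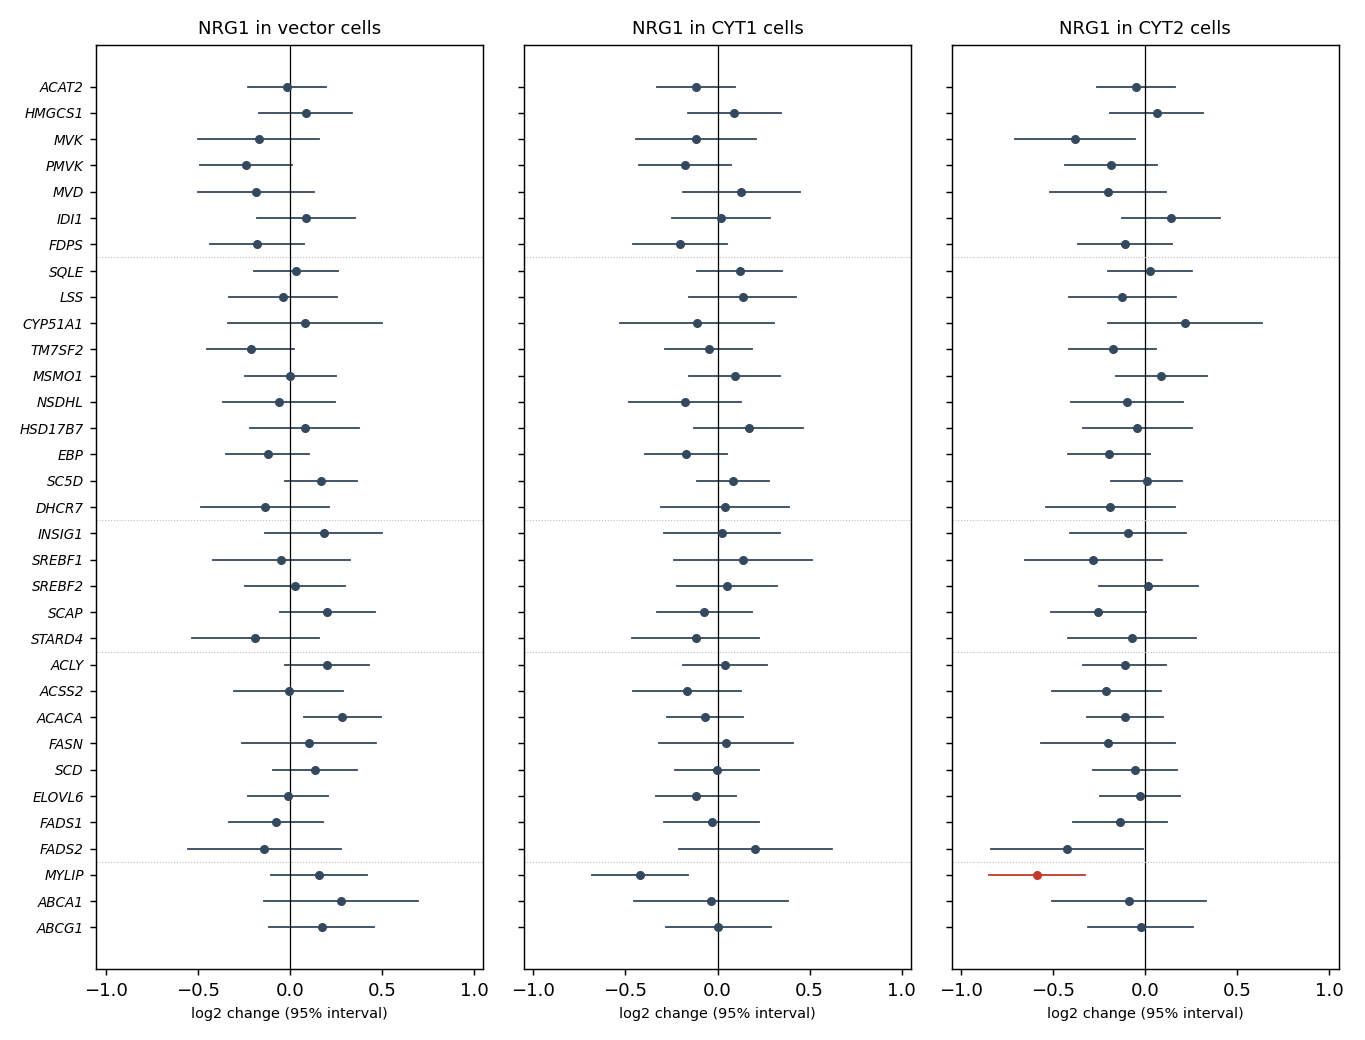
Log2 change with NRG1 (points) and its 95% interval (lines) for the 33 genes in vector, CYT1 and CYT2 cells, in order of pathway role, with dotted lines between roles. MYLIP in CYT2 cells (red, -0.59) is the gene past the threshold, and 26 of the 33 points in CYT2 cells lie below 0.

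MYLIP read 7.51 and 7.67 in the 2 samples of CYT2 cells without ligand and 6.90 and 7.10 with NRG1. In CYT1 cells it read 7.25 and 7.38 without and 6.82 and 6.97 with NRG1. In vector cells it read 7.22 and 7.41 without and 7.38 and 7.57 with NRG1. In both ERBB4 lines each sample with NRG1 lay below both samples without it, whereas in vector cells the samples overlapped. The change was -0.59 ± 0.12 (SE, 95% interval -0.85 to -0.33, adjusted p = 0.0284, limma) in CYT2 cells. In CYT1 cells it was -0.42 ± 0.12 (adjusted p = 0.429, limma), and without sample 1 of CYT1 cells with NRG1 it was -0.35 (adjusted p = 0.901). In vector cells it was 0.16 ± 0.12 (adjusted p = 0.999, limma).

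The response of MYLIP was also set against that of vector cells, both as a difference of NRG1 effects. That difference was -0.75 ± 0.17 for CYT2 cells (adjusted p = 0.138, limma) and -0.58 ± 0.17 for CYT1 cells (adjusted p = 0.788), so neither passed. The difference in NRG1 effect between CYT1 and CYT2 cells was 0.17 ± 0.17. The call in CYT2 cells was lost when any of the 4 CYT2 samples was left out, with an adjusted p of 0.320 and 0.0611 without sample 2 or 1 of the cells without ligand. It was 0.256 and 0.0597 without sample 1 or 2 of the cells with NRG1, and the change stayed between -0.69 and -0.49. Without background correction the change was -0.34, and on the deposited values, which are not normalized, it was -0.23 (adjusted p = 0.275).

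The exporters ABCA1 and ABCG1, which share their LXR control with MYLIP, did not pass with NRG1 in any line. ABCA1 read 5.56 and 5.44 in CYT2 cells and 5.43 and 5.40 with NRG1. It read 5.61 and 5.76 in CYT1 cells and 5.83 and 5.46 with NRG1, and 4.89 and 5.46 in vector cells and 5.21 and 5.70 with NRG1. Its samples with and without ligand overlapped in CYT1 and vector cells, and in CYT2 cells those with NRG1 lay just below, with a change of -0.09. ABCG1 had 4 probes that passed the detection filter, and the one used changed by -0.03 in CYT2 cells. Its other 3 probes gave 0.26, -0.23 and -0.21 there. The probe at 0.26 was dim, detected on 5 of 24 arrays, with 0 of 4 in CYT2 cells and 2 of 4 with NRG1. The probe used and those at -0.23 and -0.21 were detected on all 24 arrays and shared their sign.

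**Figure D2:**
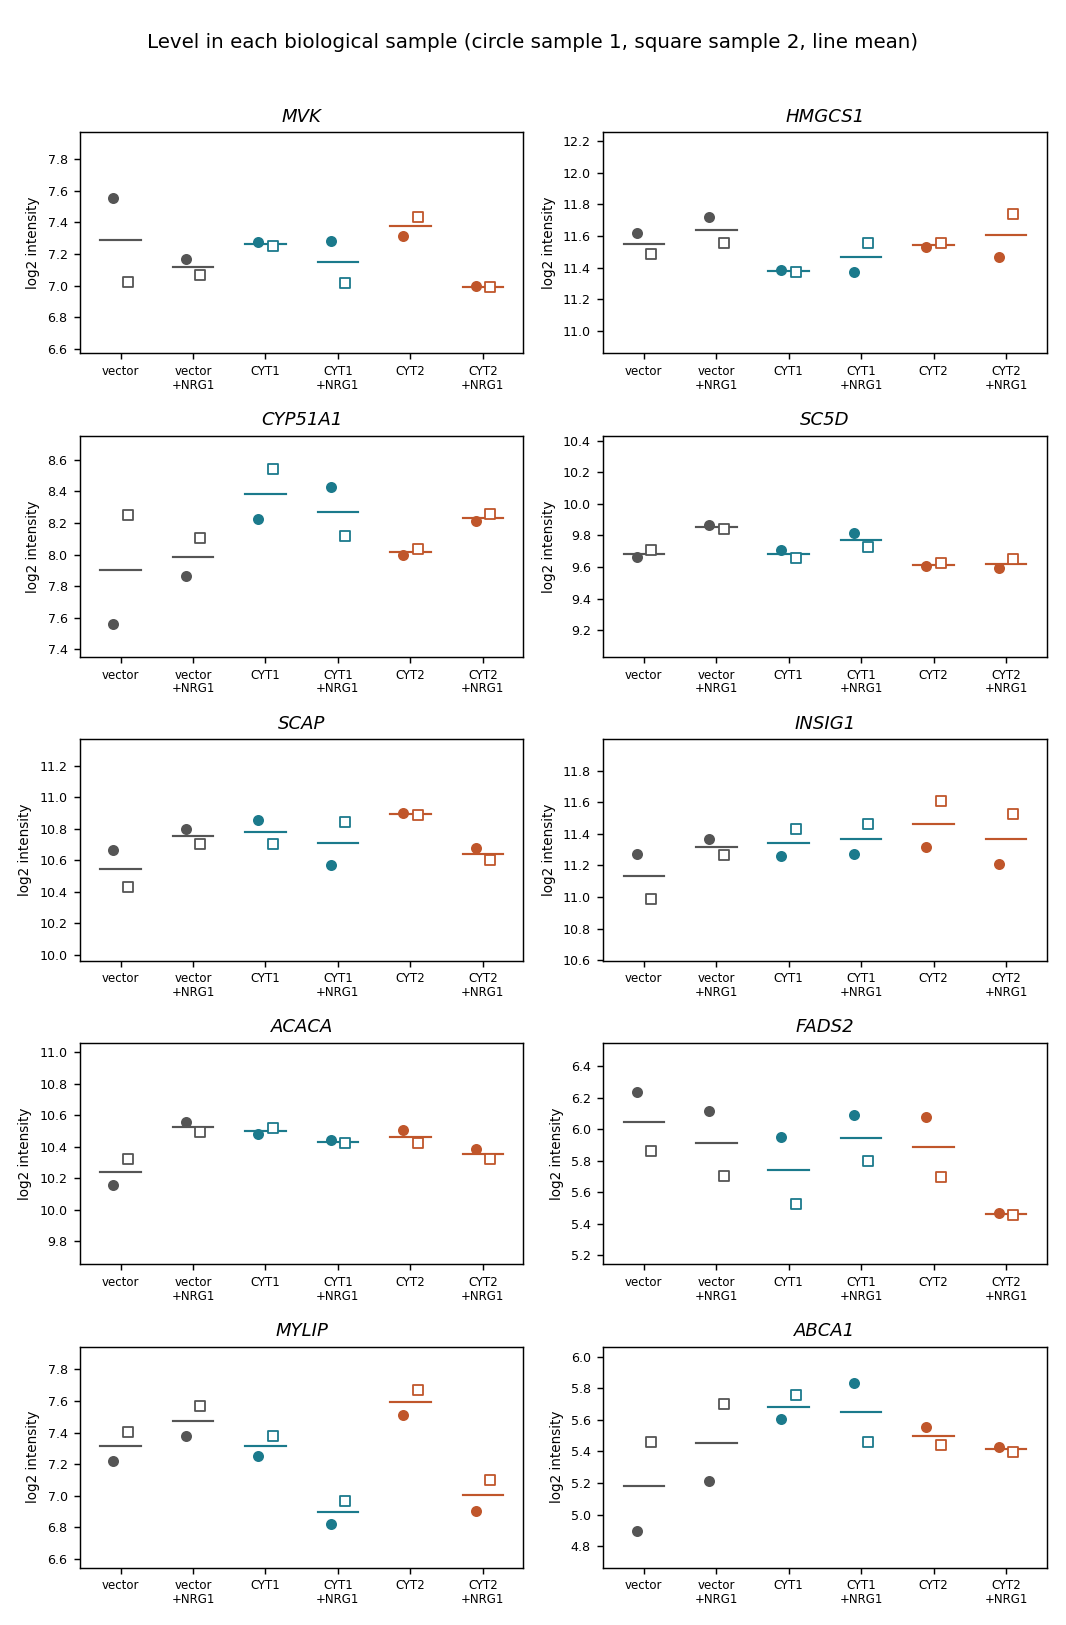
Log2 intensity of the 10 genes given sample by sample, in the 6 groups, with sample 1 as a filled circle, sample 2 as an open square and the group mean as a line (each panel has its own range of values, of the same width). In CYT1 and CYT2 cells the MYLIP samples with NRG1 sit below those without it, in vector cells they overlap, and CYP51A1 and ABCA1 show a wide gap between the 2 vector samples.

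The 7 mevalonate genes, from acetyl-CoA to farnesyl diphosphate, had 0 members past the threshold with NRG1 in each line. HMGCS1, the synthase of HMG-CoA, read 11.53 and 11.56 in CYT2 cells and 11.47 and 11.74 with NRG1. It read 11.38 and 11.37 in CYT1 cells and 11.38 and 11.56 with NRG1, and 11.62 and 11.48 in vector cells and 11.72 and 11.56 with NRG1. Its samples with and without NRG1 overlapped in all 3 lines.

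MVK, mevalonate kinase, had the smallest p after MYLIP in CYT2 cells. It read 7.32 and 7.44 without and 7.0 and 6.99 with NRG1 there. In CYT1 cells it read 7.28 and 7.25 without and 7.28 and 7.01 with NRG1, and in vector cells 7.55 and 7.02 without and 7.17 and 7.07 with NRG1. The groups did not overlap in CYT2 cells, and the change was -0.38 ± 0.15 (adjusted p = 0.332, limma), short of the threshold. The changes of the other mevalonate genes ran from -0.20 (MVD, mevalonate diphosphate decarboxylase) to 0.14 (IDI1, isopentenyl diphosphate isomerase) in CYT2 cells. In CYT1 cells FDPS, farnesyl diphosphate synthase, had the lowest change of the group, -0.20 ± 0.12 (adjusted p = 0.737, limma). In vector cells PMVK, phosphomevalonate kinase, had the lowest, -0.24 ± 0.11 (adjusted p = 0.999).

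The 10 tested genes from squalene to cholesterol also had 0 members past the threshold with NRG1 in each line. CYP51A1, the lanosterol demethylase, read 8.0 and 8.04 in CYT2 cells and 8.21 and 8.26 with NRG1. It read 8.22 and 8.54 in CYT1 cells and 8.42 and 8.11 with NRG1, and 7.56 and 8.25 in vector cells and 7.86 and 8.10 with NRG1. Its 2 vector samples lay further apart than any pair of group means, and its change in CYT2 cells was 0.22 ± 0.19. SC5D, a sterol desaturase late in the pathway, read 9.60 and 9.63 in CYT2 cells and 9.59 and 9.65 with NRG1. It read 9.71 and 9.66 in CYT1 cells and 9.82 and 9.73 with NRG1, and 9.66 and 9.71 in vector cells and 9.87 and 9.84 with NRG1. Both samples with NRG1 were above both without it in CYT1 and vector cells, and none of these changes passed. EBP, a sterol isomerase, gave the lowest change of the group in CYT2 cells, -0.20 ± 0.10 (adjusted p = 0.518, limma), and SQLE, squalene epoxidase, moved by 0.03 there. In CYT1 cells EBP gave -0.17 ± 0.10 (adjusted p = 0.756), and in vector cells TM7SF2, a sterol reductase, gave -0.21 ± 0.11 (adjusted p = 0.999).

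Among the 5 control genes, 0 passed with NRG1 in each line. INSIG1 read 11.32 and 11.61 in CYT2 cells and 11.21 and 11.53 with NRG1. It read 11.26 and 11.43 in CYT1 cells and 11.27 and 11.46 with NRG1, and 11.28 and 10.99 in vector cells and 11.37 and 11.27 with NRG1. The pairs of samples overlapped in CYT2, CYT1 and vector cells alike. SCAP read 10.90 and 10.89 in CYT2 cells and 10.68 and 10.60 with NRG1. It read 10.85 and 10.70 in CYT1 cells and 10.57 and 10.84 with NRG1, and 10.66 and 10.43 in vector cells and 10.80 and 10.70 with NRG1. Its samples lay lower with NRG1 in CYT2 cells and higher in vector cells, and the difference of these effects was -0.46 ± 0.17 (adjusted p = 0.443, limma). SREBF1 changed by -0.28 and SREBF2 by 0.02 with NRG1 in CYT2 cells.

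The 8 tested fatty acid genes had 0 members past the threshold with NRG1 in each line. ACACA, the acetyl-CoA carboxylase that makes malonyl-CoA, read 10.16 and 10.32 in vector cells and 10.55 and 10.49 with NRG1. It read 10.48 and 10.52 in CYT1 cells and 10.44 and 10.42 with NRG1, and 10.51 and 10.42 in CYT2 cells and 10.39 and 10.32 with NRG1. Vector cells without ligand held the lowest sample of all 12, and the change with NRG1 there was 0.29 ± 0.10 (adjusted p = 0.999, limma). The difference in NRG1 effect between CYT2 and vector cells was -0.39 ± 0.13 (adjusted p = 0.395). FADS2, a fatty acid desaturase, read 6.08 and 5.69 in CYT2 cells and 5.47 and 5.46 with NRG1. It read 5.95 and 5.53 in CYT1 cells and 6.09 and 5.80 with NRG1, and 6.23 and 5.86 in vector cells and 6.11 and 5.70 with NRG1. Both CYT2 samples with NRG1 were below the other 10 samples, and the change was -0.42 ± 0.19 (adjusted p = 0.422, limma). FASN, fatty acid synthase, changed by -0.20 and SCD, the stearoyl-CoA desaturase, by -0.06 in CYT2 cells.

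Counted by direction alone, 26 of the 33 members lay below 0 with NRG1 in CYT2 cells, where 55.2% of all genes did, and their median was -0.11 against -0.02 for all genes. By the probe used, all 8 fatty acid genes, 5 of 7 mevalonate genes and 6 of 10 sterol genes were below 0. So were 4 of 5 control genes and 3 of 3 LXR targets. A second ACLY probe, also detected on all 24 arrays, rose with NRG1 in CYT2 cells, from a mean of 10.96 to 11.11. Of 17 other probes of the members, 12 had the sign of the probe used for their gene. The groups did not overlap for 15 members lower and 3 higher, against 27.4% and 21.2% of all genes. On the deposited values, which are not normalized, the median of all genes was 0.11 and that of the members 0.06. There 8 of 33 members were below 0 and 23 of 33 were below the median of all genes, so the sign of the members' median depended on the scaling. With NRG1, 17 of 33 members were below 0 in CYT1 cells (51.9% of all genes) and 16 of 33 in vector cells (46.1%). These counts come from genes that share samples and carry no test.

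The effect of NRG1 was then compared between lines. Between CYT1 and vector cells 0 members and 0% of all genes passed, and at an unadjusted p under 0.05 there were 0 higher and 2, MYLIP and ACACA, lower (5.94% of all genes). The difference in effect was -0.36 ± 0.13 for ACACA and -0.28 ± 0.17 for SCAP, next in order of p. Between CYT2 and vector cells 0 members passed, against 0.243% of all genes, and without adjustment 0 were higher and 3 lower (8.29% of all genes). The 3 were MYLIP, ACACA and SCAP. By the probe used, all 8 fatty acid genes were below 0 in this comparison (55.3% of all genes), with a median of -0.25. The second ACLY probe went the other way. Its mean moved from 11.06 to 10.97 with NRG1 in vector cells and from 10.96 to 11.11 in CYT2 cells. Here too, 12 of 17 other probes had the sign of the probe used for their gene. Between CYT1 and CYT2 cells 0 members passed, against 0.00809% of all genes, and without adjustment 1 was higher and 0 lower (3.62% of all genes). This was FADS2, with a difference in effect of 0.63 ± 0.27 (adjusted p = 0.9998, limma). SREBF1 (0.42 ± 0.24) and MVD (0.33 ± 0.21) followed it in order of p. An interval within 1.5-fold was reached for 22, 19 and 23 of the 33 members in these 3 comparisons, so they were the least precise.

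The lines were next compared without ligand. Between CYT1 and vector cells 0 members passed, against 0.194% of all genes, and without adjustment 3 were higher and 0 lower (14.0% of all genes). These were ACACA (0.26 ± 0.10, adjusted p = 0.248, limma), ABCA1 (0.50 ± 0.19, adjusted p = 0.272) and CYP51A1 (0.48 ± 0.19, adjusted p = 0.295). The size of these last 2 differences moved with the vector samples. Without sample 1 of vector cells the difference was 0.22 for ABCA1 and 0.13 for CYP51A1, and without sample 2 it was 0.79 (adjusted p = 0.0839) and 0.82 (adjusted p = 0.0638). Without sample 2 of CYT1 cells CYP51A1 gave 0.32. Between CYT2 and vector cells 0 members passed, against 1.93% of all genes, and without adjustment 4 were higher and 0 lower (16.4% of all genes). The smallest p belonged to SCAP (0.35 ± 0.12, adjusted p = 0.163, limma), followed by ACACA (0.23 ± 0.10, adjusted p = 0.261) and MYLIP (0.28 ± 0.12, adjusted p = 0.274), and the fourth was INSIG1 (0.33). Between CYT1 and CYT2 cells 0 members and 0% of all genes passed, and without adjustment 0 were higher and 1, MYLIP, was lower (-0.28 ± 0.12, 5.52% of all genes). CYP51A1 (0.37 ± 0.19, adjusted p = 0.852) and IDI1 (0.22 ± 0.12, adjusted p = 0.859) came next in order of p. The comparisons with vector cells share the same 2 control samples.

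With NRG1 present, 0 members passed between CYT1 and vector cells (0.0162% of all genes), between CYT2 and vector cells (0.397%) or between CYT1 and CYT2 cells (0.00809%). Without adjustment the counts were 0 higher and 1 lower, 0 higher and 3 lower, and 1 higher and 0 lower, against 9.01%, 9.48% and 6.57% of all genes. MYLIP had the smallest p in both comparisons with vector cells, at -0.58 ± 0.12 for CYT1 (adjusted p = 0.114, limma) and -0.47 ± 0.12 for CYT2 cells (adjusted p = 0.165). In both, its 2 samples lay below both vector samples. Between CYT1 and vector cells EBP (-0.19 ± 0.10, adjusted p = 0.591) and SQLE (0.16 ± 0.11, adjusted p = 0.653) followed. SC5D differed by -0.23 ± 0.09 between CYT2 and vector cells (adjusted p = 0.426, limma). FADS2 differed by -0.45 ± 0.19 there (adjusted p = 0.477), and by 0.48 ± 0.19 between CYT1 and CYT2 cells (adjusted p = 0.753). SREBF1 (0.32 ± 0.17) and SC5D (0.15 ± 0.09) followed it in the latter comparison.

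Averaged over both ligand states, 0 members passed between CYT1 and vector cells (0.979% of all genes), CYT2 and vector cells (2.49%) or CYT1 and CYT2 cells (0%). Without adjustment the counts were 2 higher and 2 lower, 0 higher and 2 lower, and 0 higher and 1 lower, against 16.5%, 16.3% and 9.29% of all genes. MYLIP differed by -0.29 ± 0.08 between CYT1 and vector cells (adjusted p = 0.130, limma), and EBP by -0.17. CYP51A1 differed by 0.38 ± 0.14 there (adjusted p = 0.189), and the difference was 0.55 (adjusted p = 0.0466) without sample 2 of vector cells and 0.21 (adjusted p = 0.385) without sample 1. ABCA1 differed by 0.35 ± 0.14 (adjusted p = 0.228), which became 0.49 and 0.21 without the same samples. Between CYT2 and vector cells the 2 lower members were SC5D (-0.15 ± 0.06, adjusted p = 0.257, limma) and FADS2 (-0.30 ± 0.14, adjusted p = 0.284), and INSIG1 came next, at 0.19 ± 0.10 (adjusted p = 0.389). Between CYT1 and CYT2 cells the lower member was MYLIP (-0.19 ± 0.08, adjusted p = 0.530), followed by HMGCS1 (-0.15 ± 0.08, adjusted p = 0.547) and IDI1 (0.15 ± 0.09, adjusted p = 0.562). The interval lay within 1.5-fold for 31, 32 and 33 of the 33 members in these comparisons, which rest on 4 samples a line.

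**Figure D3:**
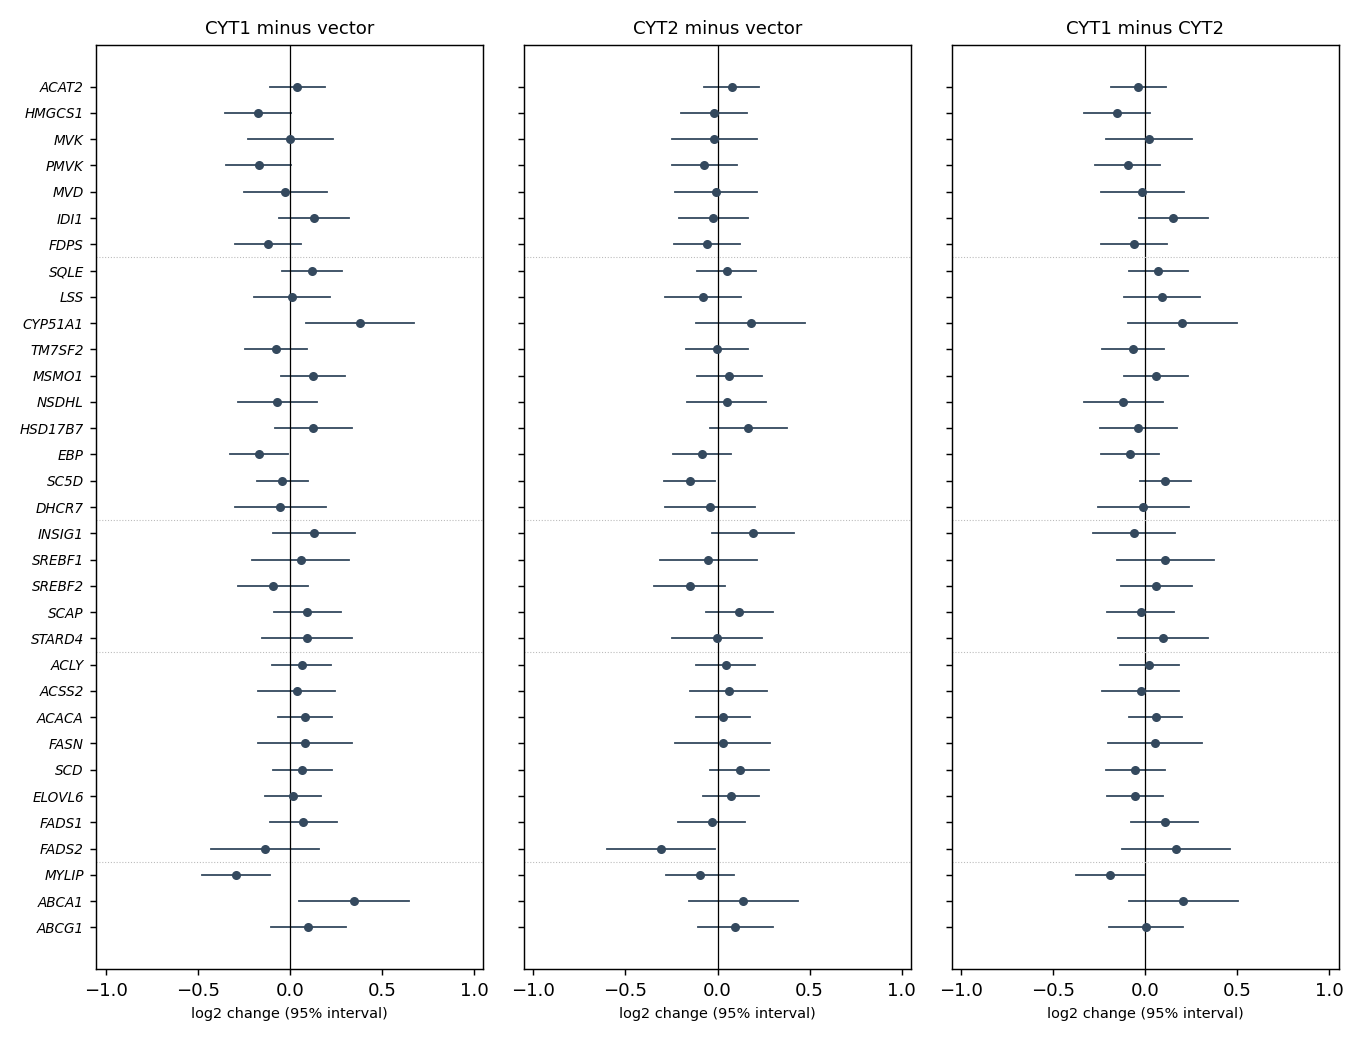
Log2 difference between lines, averaged over both ligand states (points), and its 95% interval (lines) for the 33 genes in order of pathway role, with dotted lines between roles. No gene is past the threshold, and the widest intervals belong to genes such as CYP51A1, FADS2 and ABCA1.

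The 2 vector samples without ligand differed in these genes. DHCR7, the reductase of the last step to cholesterol, read 10.94 in sample 1 and 10.32 in sample 2. FASN read 13.15 and 12.53, and SREBF1 read 9.78 and 9.18. These enzymes and the regulator were higher in the same sample, as were MVK (7.55 and 7.02), LSS, lanosterol synthase (10.31 and 9.86), and MVD (8.95 and 8.54). CYP51A1 (7.56 and 8.25) and ABCA1 (4.89 and 5.46) lay the other way. In all, 22 of 33 members were higher in sample 1, and 11 of 33 (33.3%) differed by more than 0.3, against 20.7% of all genes. With NRG1, 25 of 33 members were higher in sample 1 of vector cells, and each gene named here lay the same way. The counts were 19 in CYT1 cells, 15 in CYT1 cells with NRG1, 17 in CYT2 cells and 15 in CYT2 cells with NRG1. The share of all genes higher in sample 1 is not given here.

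Other groups showed a smaller gap in these genes. More than 0.3 separated the samples for 2 members (6.06%) in vector cells with NRG1, 4 (12.1%) in CYT1 cells, 5 (15.2%) in CYT1 cells with NRG1, 2 (6.06%) in CYT2 cells and 1 (3.03%) in CYT2 cells with NRG1. The matching shares of all genes were 6.78%, 7.94%, 22.5%, 10.4% and 6.99%. The root mean square difference between samples over the members was 0.328 in vector cells and 0.133 to 0.213 in the other 5 groups. Between technical arrays of a sample it was 0.098 to 0.180, below the gap between the vector samples. Every comparison that uses vector cells without ligand carries this gap in its estimate. The 12 samples share 1 estimate of the spread per gene, so the gap also enters the SE of comparisons without vector cells. For FASN the SE of the change with NRG1 was 0.167 in vector and in CYT2 cells.

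**Figure D4:**
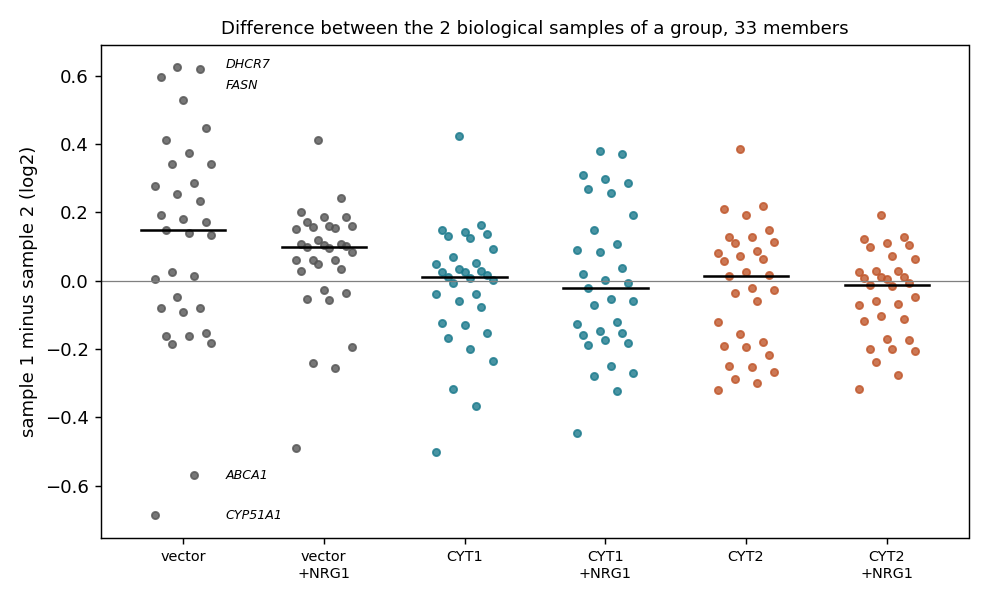
Difference between biological sample 1 and sample 2 of each group (log2) for each of the 33 genes (points), with the median as a line. Vector cells without ligand show the widest range, from -0.69 (CYP51A1) to 0.63 (DHCR7), and 11 of the 33 points lie more than 0.3 from 0.

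Other genes of lipid metabolism were taken from 6 further lists, also chosen with earlier results of these data known. With NRG1 in CYT2 cells, ANGPTL4, an inhibitor of lipoprotein lipase, rose and PDK4, a kinase that switches off pyruvate dehydrogenase, fell. They were the 2 of 13 tested genes of fatty acid oxidation and storage that passed there, against 1.65% of all genes. SCD5, a desaturase related to SCD, was lower in both ERBB4 lines than in vector cells. LIPA, the lysosomal acid lipase that frees cholesterol from its esters, was higher in CYT1 than in vector cells. Averaged over ligand, 0.979% of all genes passed between CYT1 and vector cells and 2.49% between CYT2 and vector cells.

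ANGPTL4 read 9.23 and 8.96 in CYT2 cells and 10.24 and 10.27 with NRG1. In CYT1 cells it read 9.41 and 9.23 without and 9.81 and 10.15 with NRG1, and in vector cells 9.65 and 9.55 without and 9.56 and 9.43 with NRG1. Both ERBB4 lines had higher samples with NRG1, with no overlap. In CYT2 cells 21.2% of all genes were higher without overlap. The change in CYT1 cells was 0.66 and did not pass. The smallest adjusted p of this list there was 0.202 (limma). The change in CYT2 cells was 1.17 ± 0.13 (adjusted p = 0.00121, limma), and it exceeded that in vector cells by 1.27 ± 0.19 (adjusted p = 0.0195). With NRG1 present, ANGPTL4 was 0.76 ± 0.13 higher in CYT2 than in vector cells (adjusted p = 0.0268). These last 2 calls were lost in 9 and 8 of 23 alternatives, among them the omission of either vector sample with NRG1, where the difference of effects had an adjusted p of 0.0610 or 0.103.

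PDK4 read 5.91 and 5.79 in CYT2 cells and 5.21 and 4.86 with NRG1. In CYT1 cells it read 5.88 and 5.89 without and 5.38 and 5.20 with NRG1, and in vector cells 5.38 and 5.57 without and 5.20 and 5.51 with NRG1. The samples of both ERBB4 lines were lower with NRG1 without overlap, and those of vector cells overlapped. In CYT2 cells 27.4% of all genes were lower without overlap. The change in CYT1 cells was -0.60 and did not pass. The change in CYT2 cells was -0.81 ± 0.14 (adjusted p = 0.0121, limma). The probe was dim, and the change was -0.24 (adjusted p = 0.0505) without background correction. Without sample 1 or 2 of CYT2 cells the adjusted p was 0.0757 or 0.0936, and without sample 2 of CYT2 cells with NRG1 it was 0.119.

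SCD5 read 9.62 and 9.66 in vector cells, 9.11 and 9.05 in CYT1 cells and 8.88 and 9.02 in CYT2 cells. With NRG1 it read 9.49 and 9.5 in vector, 9.14 and 9.0 in CYT1 and 9.09 and 8.86 in CYT2 cells. All 8 samples of the ERBB4 lines lay below all 4 vector samples. Averaged over ligand, the difference from vector cells was -0.49 ± 0.08 for CYT1 (adjusted p = 0.00933, limma) and -0.61 ± 0.08 for CYT2 cells (adjusted p = 0.00122). Without ligand it was -0.69 ± 0.11 for CYT2 cells (adjusted p = 0.00808), and 0.0503 or 0.0757 was the adjusted p without vector sample 2 or CYT2 sample 1. For CYT1 cells averaged, the adjusted p was 0.0619 without sample 2 of vector cells with NRG1 and 0.0684 without CYT1 sample 2.

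LIPA read 10.47 and 10.60 in vector cells, 10.994 and 10.995 in CYT1 cells and 10.90 and 10.79 in CYT2 cells. With NRG1 it read 10.78 and 10.68 in vector, 11.08 and 10.90 in CYT1 and 10.80 and 10.69 in CYT2 cells. Averaged over ligand it was 0.36 ± 0.07 higher in CYT1 than in vector cells (adjusted p = 0.0433, limma), with no overlap of the samples, and this call was kept in 8 of 23 alternatives. The adjusted p ran from 0.000259 to 0.241 over them, and leaving out 10 of the 12 samples in turn, all but vector sample 2 and sample 2 of CYT1 cells with NRG1, ended the call.

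No other gene of these lists passed in any of the 15 comparisons. They held 10 tested genes of SREBP processing, 13 of sterol uptake and transport, 12 of isoprenoid and late sterol synthesis, 21 of fatty acid and glycerolipid synthesis and 6 of LXR and its partners. All 6 LXR genes were below 0 with NRG1 in CYT2 cells, where 55.2% of all genes were. Of the 10 SREBP processing genes, 4 were below 0 there.

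**Figure D5:**
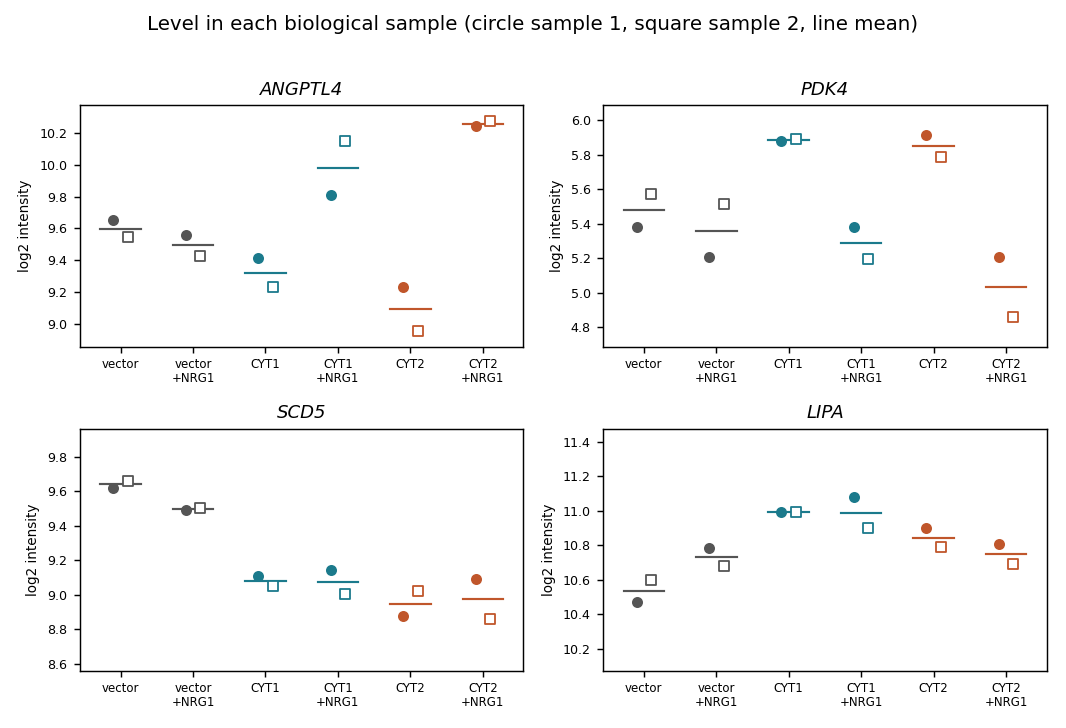
Log2 intensity of the 4 other lipid genes past the threshold in any comparison, in the 6 groups, with sample 1 as a filled circle, sample 2 as an open square and the group mean as a line. ANGPTL4 rises and PDK4 falls with NRG1 in CYT2 cells, and SCD5 is lower in all samples of both ERBB4 lines than in vector cells.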

How the data were processed

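Per the file headers, the deposited scanner table gives 47323 probes an intensity (mean bead signal) and a detection p-value on each of 24 arrays. The scanning software is not given in the sources used here. A second table, deposited by the authors, holds log2 values, which equalled the log2 of that signal (the log10 of the largest difference was under -8), so they are not normalized. Names came from the platform annotation, in which 30113 probes had 1 symbol, 8 had several and 17202 were not listed or unnamed.

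Background correction and quantile normalization used neqc (limma 3.58.1, R 4.3.3, offset 16), which inferred the negative controls from the detection p-values. Probes with detection p under 0.05 on at least 4 arrays were kept (23019, of which 16620 named), and the brightest per gene was used (12357 genes). Technical arrays were averaged, and 12 samples entered 1 model of group means (lmFit and eBayes, 6 residual and 6.31 prior degrees of freedom), with 15 comparisons. Genes passed at an adjusted p under 0.05. The code was tested on simulated data.

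Members, lists and tests were chosen with earlier results of these data known. Values in every sample are given for members past the threshold, filled up to 2 per role by smallest p. The 3 members of smallest p are given in each comparison, and other lipid genes only where past the threshold. Alternatives were other filters, no background correction, the deposited values, every probe, single technical arrays, all arrays with sample as a random block, only the groups compared, a trended robust fit, a replicate block, and each sample left out. Files named no chips or scan dates, so no batch could be tested. The labels do not say whether samples of the same number were paired, and their deviations correlated by -0.17 to 0.23 between groups.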

Additional observations from a re-analysis of the deposited data

Results flagged for a closer look

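A probe of ABCG1, the sterol exporter, that the detection filter left out was detected on 3 of the 4 arrays of CYT2 cells without ligand and, in vector cells, on 0 of 4 arrays. It was detected on no other array, so 3 of 24 in all. It drew attention as a signal in data the comparisons did not use, and the cause was not tested.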

How the results depend on the processing

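The 53 single-gene values kept their direction in all alternatives. Many alternatives could not change it, such as a trended robust fit or leaving out a sample of a group outside the comparison. The values were also chosen by small p in these same data, so the kept direction is no test of them. The count of members past the threshold with NRG1 in CYT2 cells, 1 in the report, was 0 with no filter on dim probes, on the deposited values, with technical array 1 only, with technical array 2 only and with only the groups of the comparison, and 0 to 1 when samples were left out in turn. With all 24 arrays and the sample as a random block, counts of 0 became 2 (MYLIP and ACACA) for the NRG1 effect in CYT2 against vector cells, 1 (ACACA) for CYT1 and 2 (SCAP and ACACA) for CYT2 against vector cells without ligand. With that block MYLIP alone gave 1 for CYT1 and 1 for CYT2 against vector cells with NRG1. It also gave 1 for CYT1 against vector cells averaged over ligand. That fit takes its degrees of freedom from 24 arrays, though each group still held 2 biological samples, so these added calls rest partly on technical repeats. With the replicate number as a block, MYLIP gave 1 in place of 0 for the NRG1 effect in CYT2 against vector cells and for CYT1 and CYT2 against vector cells with NRG1, and the other counts of members were as reported. The labels give same-numbered samples only a number and do not say whether they were paired. Leaving out samples in turn gave 0 to 1 for CYT1 against vector cells with NRG1 (1, MYLIP, without sample 2 of CYT1 cells with NRG1) and 0 to 1 for CYT1 against vector cells averaged (1, CYP51A1, without vector sample 2). Over all genes, the 204 past the threshold with NRG1 in CYT2 cells ranged from 9 to 451 under processing alternatives and from 28 to 230 with samples left out. The 239 for CYT2 against vector cells without ligand ranged from 38 to 785 and from 80 to 359, and the 308 averaged over ligand from 52 to 830 and from 87 to 420. The cause of these shifts was not tested. The dimmest probes (STARD4, ABCA1, SREBF2 and FADS2) limit what could be seen for their genes.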
